A study of Mus musculus with 6 samples.

Results

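The genes described here are 10 ligands and receptors of the platelet-derived growth factor (PDGF) and fibroblast growth factor (FGF) families, out of 54532 genes counted in mouse 3T3 fibroblasts. They are the PDGF ligands Pdgfa, Pdgfb and Pdgfc, the PDGF receptors Pdgfra and Pdgfrb, the FGF ligands Fgf2, Fgf7 and Fgf10, and the FGF receptors Fgfr1 and Fgfr2. The list was selected on values of these same libraries, with the difference between SAFB KD and control known. Differences of the 10 genes are therefore given as a description. Calls that the fit over all genes makes for them are stated as labels only and are not a test of anything about the list. All 10 genes passed the filter of at least 10 reads over the 6 libraries, which 19452 genes passed in all.

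The study asked what happens to RNAs in mouse cells when the 3 related nuclear RNA-binding proteins Safb1 (gene Safb), Safb2 and Sltm are depleted at the same time. The cells were Flp-In 3T3, an established embryonic fibroblast line with an engineered integration site for transgenes. The 3 control libraries came from cells given a control treatment, and the 3 SAFB KD libraries, titled triple KD, from cells transfected with 1 siRNA (a short double-stranded RNA that directs cleavage of a matching transcript) per target and harvested on the third day. Transfection was repeated on the day after the first. Both groups share the line and its integrated site, and all libraries derive from this 1 line. Each target was reached by a single siRNA sequence.

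PDGFs and FGFs are secreted proteins that bind receptor tyrosine kinases at the cell surface. Binding brings receptor chains together, which phosphorylate each other and start the Ras to MAP kinase, phosphoinositide 3-kinase and phospholipase C gamma routes. PDGF receptors mark mesenchymal cells, and PDGF and FGF2 are classical mitogens of cultured fibroblasts. FGFs need heparan sulfate as a co-factor, and FGF7 and FGF10 are known as signals that mesenchymal cells send to epithelia, where they act on a splice form of Fgfr2.

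The libraries held 33323307 to 53441129 counts, and SAFB KD lay apart from control on the first principal component (82.4% of the variance). Each targeted gene was lower in every SAFB KD library than in every control library. Safb stood at 90.2 to 96.1 CPM (counts scaled to library size, scaled by the trimmed mean of M values) in control and at 44.5 to 48.5 in SAFB KD. Safb2 stood at 45.7 to 49.0 CPM in control and at 29.7 to 30.4 in SAFB KD. Sltm stood at 96.3 to 105.6 CPM in control and at 61.0 to 62.0 in SAFB KD. Fibroblast markers such as Col1a2, Fn1, Vim and Thy1 were abundant, with a summed level of 19170 to 21141 CPM in control and 17954 to 18451 CPM in SAFB KD. Of these 10 markers, 8 were lower in SAFB KD and none was higher at an adjusted p under 0.05, where 20.1% of all genes tested were lower and 21.4% higher. Their median log2 fold change was -0.25, and their median level was 724.6 CPM, against 7.05 CPM for all genes tested. More reads make a small difference easier to call, so these shares are not compared at like level. Marker lists of 6 genes each for epithelial, endothelial, leukocyte, muscle and adipocyte cells summed to at most 10.6 CPM in any library. The leukocyte list summed to between 3.51 and 4.29 CPM in control and between 6.45 and 8.50 CPM in SAFB KD, nearly all of it Cd68 (means 3.82 and 7.54 CPM). The endothelial list went from between 8.13 and 8.48 CPM in control to between 9.46 and 10.4 CPM in SAFB KD. The muscle list went from 3.55 to 4.16 CPM in control to 5.12 to 5.43 CPM in SAFB KD. For the adipocyte list the ranges were 8.30 to 8.99 and 9.68 to 10.6 CPM. The epithelial sums overlapped between the groups. Epcam, Kdr, Myog and Adipoq were at 0 in all 6, and Ptprc had 4 reads in all. The part of other cells in the differences given here was not tested. In bulk RNA, fewer cells with a transcript and less of it per cell cannot be told apart.

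The siRNAs are shown because 2 of them share a short match with the receptor that fell most, Pdgfra. The sense strands as listed in the study's oligonucleotide table read as follows, in RNA letters with 2 DNA overhang bases at the 3′ end, and capitals mark the 7 bases (positions 12 to 18 from the 5′ end) that a seed of the guide strand (its positions 2 to 8) would pair with.
Safb siRNA: ggaugaccguuACCACUCatt
Safb2 siRNA: ugcuuuugaugACAGUAAatt
Sltm siRNA: gcauuagaauaAUUCGUGatt
The first 19 bases of each occurred in the spliced coding transcripts of exactly 1 tested gene, its own target, and in no transcript of the 10 growth factor genes. In the 3′ UTR of its longest coding transcript, Pdgfra held 2 copies of the Safb seed site and 1 of the Safb2 seed site. In the same part of their own longest coding transcripts, Fgfr1 held 1 copy of the Safb seed site, and the other 8 genes held none of the 3 sites. Over 13340 tested coding genes, 7.18% held the Safb seed site, 11.5% the Safb2 seed site and 2.18% the Sltm seed site. The median log2 fold change of genes with the Safb seed site was -0.14, against 0.02 for genes without it. The same medians were -0.04 against 0.01 for the Safb2 seed site and -0.07 against 0.01 for the Sltm seed site. Genes with each seed site also had longer 3′ UTRs than genes without it. The medians were 2436 against 1030 bases for the Safb site, 2600 against 979 for Safb2 and 2975 against 1082 for Sltm. The 3′ UTR of Pdgfra had 3104 bases. The methods of the study describe these siRNAs as carrying a chemical modification that lowers off-target effects. They also state that the Sltm siRNA is the one used for human cells, since it targets the mouse mRNA too. These matches are a description, and the part of such pairing in the difference of Pdgfra or Fgfr1 was not tested.

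In the edgeR quasi-likelihood fit over all genes, with calls at an adjusted p under 0.05, 2 of the 10 genes carried the label higher in SAFB KD, 4 the label lower and 4 none. Across all genes tested, 41.5% were called, with 21.4% higher and 20.1% lower. Since the list was chosen on this contrast, nothing is read from these counts. The groups did not overlap in CPM for 7 of the 10 genes, against 49.0% of all genes tested. The median level of the 10 genes was 84.8 CPM, against 7.05 CPM for all genes tested, so these shares are not compared at like level. The median log2 fold change of the 10 genes was -0.09, and that of all genes tested was 0.01. The range among the 10 ran from -1.36 for Pdgfra to 0.49 for Fgf2.

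**Figure D1:**
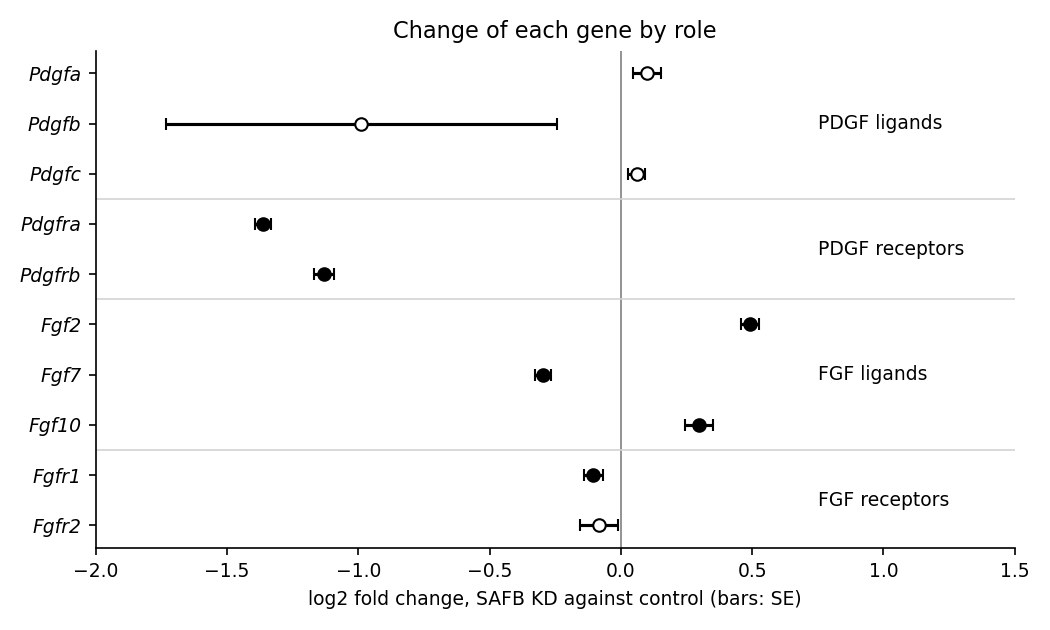
Log2 fold change (SAFB KD against control, x axis) of each of the 10 genes, ordered by role, with its SE as the bar; filled circles carry a call (adjusted p under 0.05, a label only, since this contrast chose the genes) and open circles do not. Pdgfra (-1.36) and Pdgfrb (-1.13) lie far to the left, Fgf2 (0.49) and Fgf10 (0.30) to the right, and Fgf7 (-0.30) to the left of 0.

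Both PDGF receptors were lower in SAFB KD. Pdgfra encodes receptor alpha, which binds the A, B and C chains of PDGF (chromosome 5, 75152292 to 75198215, plus strand, GRCm38, 27 merged exons). It measured 365.4, 368.9 and 363.9 CPM in control and 140.7, 144.3 and 141.6 CPM in SAFB KD. All SAFB KD libraries lay below all controls, and the spread within a group was small beside the gap. The means were 366.1 ± 2.55 and 142.2 ± 1.87 CPM (SD, n = 3 per group), which is 2.57-fold lower (log2 fold change -1.36, SE 0.030). It rested on 61667 reads in all. DESeq2 gave estimates beyond a log2 fold change of -1 for Pdgfra (-1.37), Pdgfrb (-1.14) and the barely detected Pdgfb (-1.04). In its test against a least change of 1, which called 0.673% of all genes tested, Pdgfra was the 1 of the 10 with a call, given here as a label.

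Pdgfrb encodes receptor beta, which is bound chiefly by the B and D chains (chromosome 18, 61045150 to 61085061, plus strand, 24 merged exons). Its levels were 122.8, 119.0 and 110.8 CPM in control and 52.5, 55.1 and 53.5 CPM in SAFB KD. Again every SAFB KD library was below every control library. The mean went from 117.5 ± 6.14 to 53.7 ± 1.30 CPM, 2.19-fold lower (log2 fold change -1.13, SE 0.038). It shares no base with another annotated gene. The 3′ UTR of its longest coding transcript, the only part searched for them, held none of the 3 siRNA seed sites.

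The 2 receptors did not keep the same ratio. Per kb of merged exon length, Pdgfra stood 1.63, 1.69 and 1.80 times above Pdgfrb in control. In SAFB KD the ratio was 1.46, 1.43 and 1.45. The values of the groups did not overlap, with means of 1.70 ± 0.085 and 1.45 ± 0.017. The summed level of both receptors went from 58.0 ± 1.26 to 24.0 ± 0.424 CPM per kb, which is 41.4% of the control level.

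The PDGF ligands differed far less. Pdgfa, the A chain (chromosome 5, 138976014 to 138997370, minus strand), measured 26.3, 27.9 and 25.8 CPM in control and 28.8, 27.4 and 29.6 CPM in SAFB KD. The groups overlapped, and the log2 fold change was 0.10 (SE 0.054, not called). Pdgfc, the C chain, is secreted in a latent form that needs proteolysis (chromosome 3, 81036416 to 81214040, plus strand). It measured 155.0, 155.2 and 145.5 CPM in control and 160.2, 159.0 and 156.1 CPM in SAFB KD. The groups lay side by side without overlap, and the difference was small (log2 fold change 0.06, SE 0.032, not called).

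Pdgfb, the B chain (chromosome 15, 79995874 to 80014977, minus strand), was near the limit of detection. Its raw counts were 2, 9 and 10 in control and 2, 5 and 5 in SAFB KD, or 33 reads in all. The log2 fold change of -0.99 had an SE of 0.744 and a 95% interval from -2.45 to 0.47, so no difference was detectable at this depth. Pdgfd, the remaining ligand, had 1 read in 6 libraries. Summed per kb, the PDGF ligands stood at 38.5 ± 1.33 in control and 40.3 ± 0.355 in SAFB KD (104.9% of control).

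**Figure D2:**
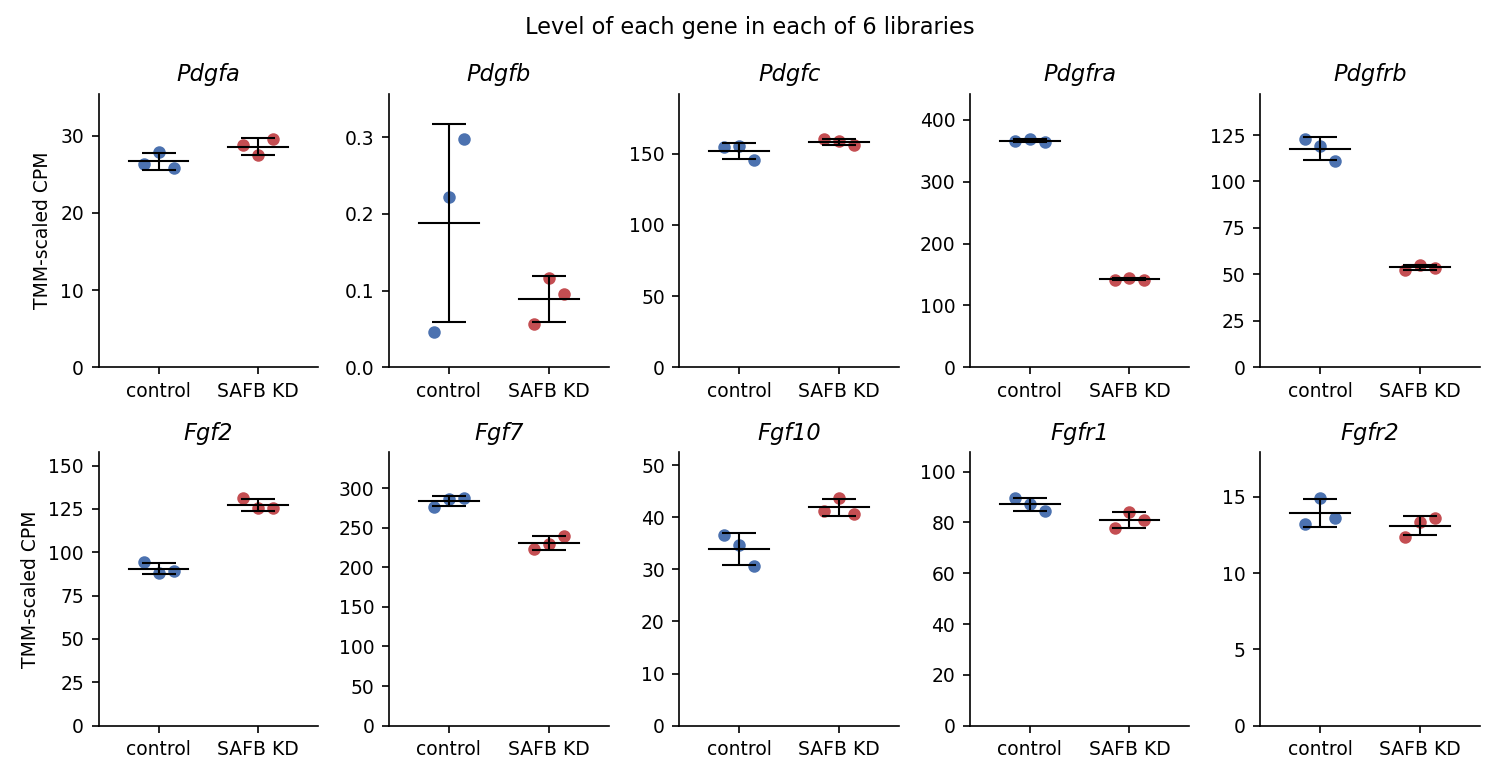
Level of each gene in CPM (y axis from 0, its own scale per panel) in 3 control (blue) and 3 SAFB KD (red) libraries, with the mean as a long line and the SD as the error bar. Pdgfra and Pdgfrb sit far below their control height, Fgf2 and Fgf10 sit above control, Fgf7 sits below, and Pdgfb lies under 0.3 CPM throughout.

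The FGF ligands moved in both directions. Fgf2, basic FGF, a mitogen that leaves the cell without a signal peptide (chromosome 3, 37348346 to 37410108, plus strand), was the member with the largest rise. It measured 94.3, 88.2 and 89.2 CPM in control and 131.5, 125.4 and 125.3 CPM in SAFB KD. Every SAFB KD library was above every control library. The mean went from 90.6 ± 3.26 to 127.4 ± 3.55 CPM, 1.41-fold higher (log2 fold change 0.49, SE 0.035).

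Fgf10 (chromosome 13, 118669791 to 118792115, plus strand), a mesenchymal signal required for limb and lung budding, also stood higher. It measured 36.5, 34.7 and 30.6 CPM in control and 41.2, 43.8 and 40.7 CPM in SAFB KD. The groups did not overlap, and the controls spread more widely than the SAFB KD libraries. The mean went from 33.9 ± 3.04 to 41.9 ± 1.66 CPM, 1.23-fold higher (log2 fold change 0.30, SE 0.053).

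Fgf7, also called keratinocyte growth factor (chromosome 2, 126034658 to 126091185, plus strand), stood lower. It measured 276.1, 286.7 and 288.0 CPM in control and 223.0, 229.0 and 240.0 CPM in SAFB KD. The groups did not overlap. The mean went from 283.6 ± 6.49 to 230.7 ± 8.65 CPM, 1.23-fold lower (log2 fold change -0.30, SE 0.032). Because Fgf7 was by far the most abundant of the 3 per length, the summed FGF ligands went from 108.1 ± 1.04 to 98.9 ± 2.14 CPM per kb, although Fgf2 and Fgf10 stood higher.

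The FGF receptors differed little. Fgfr1, the main FGF receptor of fibroblasts (chromosome 8, 25513654 to 25575718, plus strand), measured 89.8, 87.1 and 84.4 CPM in control and 78.0, 84.2 and 80.9 CPM in SAFB KD. The lowest control library and the highest SAFB KD library nearly met. The log2 fold change was -0.10 (SE 0.037), and the call was lost without control 1 (-0.09), without SAFB KD 1 (-0.08) and without SAFB KD 3 (-0.10). Fgfr2 (chromosome 7, 130162451 to 133123350, minus strand) measured 13.2, 14.9 and 13.6 CPM in control and 12.4, 13.3 and 13.6 CPM in SAFB KD. The groups overlapped, and the log2 fold change was -0.08 (SE 0.071, not called). Per length, the ratio of Fgfr1 to Fgfr2 was 6.56 ± 0.504 in control and 6.47 ± 0.218 in SAFB KD, a difference below the spread between libraries. Gene counts do not separate the epithelial and mesenchymal splice forms of Fgfr2.

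The order of the genes, read per kb of merged exon length, differed between the groups. In control it ran Fgf7 (85.0 to 88.7 CPM per kb), Pdgfra (36.3 to 36.8), Pdgfc (28.6 to 30.5), Pdgfrb (20.2 to 22.4), Fgf2 (13.0 to 13.9), Fgfr1 (8.55 to 9.09), Pdgfa (8.28 to 8.93), Fgf10 (6.65 to 7.94), Fgfr2 (1.28 to 1.45) and Pdgfb (0.011 to 0.072). Of these neighbours, only Fgfr1 and Pdgfa overlapped in range. In SAFB KD, Pdgfc (30.7 to 31.5 CPM per kb) and Fgf2 (18.5 to 19.4) both stood above Pdgfra (14.0 to 14.4). Pdgfrb (9.58 to 10.1) stood just above Pdgfa (8.80 to 9.48) and Fgf10 (8.84 to 9.51), whose ranges overlapped. Fgfr1 (7.89 to 8.53) then came below Fgf10. With the longest annotated transcript as the length, Fgfr1 (17.3 CPM per kb) moved above Fgf2 (15.2) in control, and the other control positions held. In SAFB KD that length changed more of the order. Fgf2 (21.3 ± 0.594 CPM per kb) then differed from Pdgfra (20.8 ± 0.274) by less than its SD. Pdgfrb (9.90) came below Fgfr1 (16.1), Pdgfa (13.9) and Fgf10 (10.2), and Fgfr1 stood above Pdgfa and Fgf10, so these positions depend on the length chosen.

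**Figure D3:**
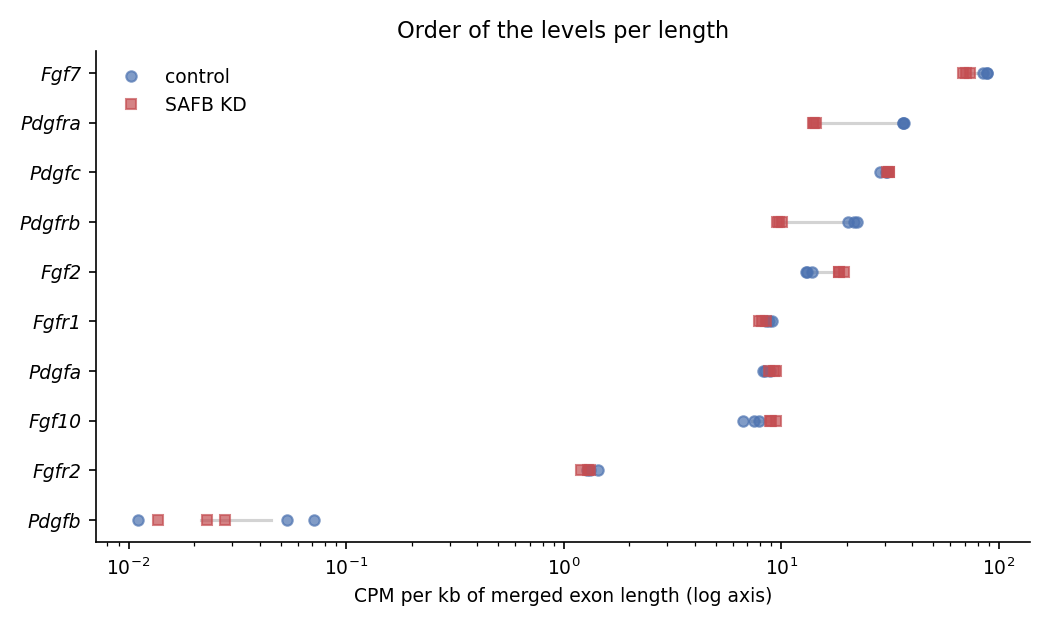
Level per length of each gene (CPM per kb of merged exon length, log axis), ordered by the control mean, with 3 control (blue circles) and 3 SAFB KD (red squares) libraries joined by a grey line between the group means. Pdgfra and Pdgfrb shift left past Fgf2, which shifts right, while Fgf7 stays at the top and Pdgfb at the bottom.

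The stretches before the start sites of Pdgfra and Fgf7, which stood lower, and Fgf10, which stood higher, are shown so that they can be compared by eye. They are the 250 bases upstream of the RefSeq start (GRCm38.p6), 5′ to 3′ on the strand of the gene. The Fgf10 stretch precedes its coding transcript and lies inside the annotated span of the gene, because transcripts annotated without a coding sequence begin further upstream. That of Pdgfrb is not reported here. That of Fgf2 is not shown, since it lies within the first exon of a longer coding transcript. With Fgf10 the only shown gene that stood higher, nothing about direction is read from the stretches. Capitals mark GGGCGG (the GC box) or CCAAT (the CCAAT box) on either strand. Searches for TATAAA and TGACTCA found no match in them.
Pdgfra, chr5:75152001-75152250, plus strand, lower: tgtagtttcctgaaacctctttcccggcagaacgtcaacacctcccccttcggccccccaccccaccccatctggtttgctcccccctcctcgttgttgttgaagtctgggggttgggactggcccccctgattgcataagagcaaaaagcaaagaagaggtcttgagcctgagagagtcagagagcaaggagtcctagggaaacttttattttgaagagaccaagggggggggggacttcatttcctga
Fgf7, chr2:126034408-126034657, plus strand, lower: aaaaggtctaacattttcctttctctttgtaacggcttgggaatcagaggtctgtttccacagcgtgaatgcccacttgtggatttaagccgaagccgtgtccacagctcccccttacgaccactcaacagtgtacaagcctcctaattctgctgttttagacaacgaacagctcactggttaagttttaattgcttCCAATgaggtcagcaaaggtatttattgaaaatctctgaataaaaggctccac
Fgf10, chr13:118714449-118714698, plus strand, higher: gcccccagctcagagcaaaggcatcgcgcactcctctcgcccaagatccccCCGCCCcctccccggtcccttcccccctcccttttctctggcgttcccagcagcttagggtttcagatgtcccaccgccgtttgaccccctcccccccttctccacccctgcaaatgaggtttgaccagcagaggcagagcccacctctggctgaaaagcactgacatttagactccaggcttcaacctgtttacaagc
Fgf10 held 1 GC box and Fgf7 held 1 CCAAT box, while Pdgfra held none of the 4 motifs. Among 32851 RefSeq stretches of the same length, 32.7% held GGGCGG, 33.9% CCAAT, 12.4% TATAAA and 4.46% TGACTCA. The GC content was 61.2% for Fgf10, against 54.4% for Pdgfra, 43.6% for Fgf7 and a median of 52.4% over all stretches. Fgf10 held 8 CG dinucleotides, Fgf7 held 6 and Pdgfra held 4.

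Some of the genes overlap others, which bears on what their counts hold. Nudt6, a coding gene on the opposite strand at the 3′ end of Fgf2, shares 640 exonic bases with it. It measured 4.42, 3.47 and 4.23 CPM in control and 5.88, 6.84 and 5.49 CPM in SAFB KD, also higher (log2 fold change 0.59, SE 0.116, edgeR adjusted p = 5.72e-05). Fgf2os, antisense at the 5′ end of Fgf2 and without shared exonic bases, was higher as well, at 0.372 ± 0.143 and 0.714 ± 0.043 CPM (adjusted p = 0.0277). Gm16263, antisense within the locus of Fgf10 and sharing 123 exonic bases with it, stood at 0.692 ± 0.358 and 1.23 ± 0.172 CPM (adjusted p = 0.0128). Its span also covers the Fgf10 stretch shown above. The other tested genes opposite these loci, outside Fgfr2, were not called. Of these, 6330403L08Rik, which shares 813 exonic bases with Pdgfa, stood at 7.16 ± 0.179 and 6.99 ± 0.352 CPM, and Gm42802, Gm42803, Gm16000, Gm42923 and Fam227b were all under 1 CPM. Reads from the opposite strand are kept apart in strand-specific libraries as far as the strand marking goes, and the part of misassigned reads in these small values was not tested.

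On the same strand, Gm43439 shares 255 exonic bases with Fgf2 and had no read in any library, and reads in such shared bases enter neither count. Mir7025 lies within Pdgfra and had 5 reads in all. The annotated span of Fgfr2 reaches 2961 kb because of long transcripts, and covers 35 other genes on its strand, of which 16 were tested. Ctbp2, at its far end, shares 314 exonic bases with it. No gene lying on the same strand within Pdgfra or Pdgfrb passed the filter.

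The genes were longer than most, with 8 of 10 spanning more than the median of 23.5 kb of 13506 coding genes tested. The hexamer GAAGAA, of the purine-rich kind that the study describes for SAFB binding, was counted in the longest coding transcript. Fgf10 held 7 copies (1.70 per kb) and Fgf7 4 (1.5 per kb), densities at or above those of 86.9% and 82.6% of coding genes. Pdgfra held 5 (0.732 per kb) and Fgf2 5 (0.837 per kb), close to the median of 0.724 per kb. Pdgfrb held 3 (0.553 per kb) and Pdgfb none. In all, 5 of 10 genes lay above the median, among them both rising FGF ligands and both Pdgfra and Fgf7, which fell. Introns were not analysed here.

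The remaining genes of both families were mostly silent in these cells. Of 24 other ligands and receptors, 15 did not pass the filter, 9 of which had no read at all, such as Fgfr3, Fgf3, Fgf4 and Fgf5. Fgfr4 had 5 reads. Of the 9 tested, 2 fell, 1 rose and 6 were not called, 33.3% called against 41.5% of all genes. Pdgfrl, which encodes a secreted protein similar to the outer part of a PDGF receptor, fell with the receptors, from 13.0 ± 0.767 to 7.50 ± 0.597 CPM (log2 fold change -0.79, SE 0.082, adjusted p = 1.27e-10). Fgfrl1, a receptor without a kinase domain, was not called, at 36.6 and 36.7 CPM (log2 fold change 0.00, SE 0.049). The other calls, picked out after their values were seen, were of low genes. Fgf14 fell from 28, 15 and 9 reads to 3, 4 and 6 reads, and Fgf21, a metabolic hormone, rose from 2, 4 and 1 reads to 7, 16 and 28 reads.

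Most tested genes of the list of co-receptors and ligand availability were lower. Of 35 co-receptors, heparan sulfate enzymes and proteases, 25 were tested, of which 16 fell, 2 rose and 7 were not called (median log2 fold change -0.16, 72% called, against 41.5% of all genes, and 20.1% of all genes lower). The median level of the tested genes was 82.6 CPM, against 7.05 CPM for all genes tested. More reads make a small difference easier to call, so the shares here and in the lists below are not compared at like level. Plau, the urokinase protease, rose from 78.2 to 130.6 CPM (log2 fold change 0.74, SE 0.034, adjusted p = 8.94e-21), and Gpc1, a heparan sulfate proteoglycan, rose from 67.0 to 94.1 CPM (0.49, SE 0.037, adjusted p = 4.45e-14). Other heparan sulfate genes, picked out after their values were seen, mostly went the other way. Gpc6 fell from 6.78 to 3.32 CPM (-1.03, SE 0.109, adjusted p = 2.35e-10), the largest change of the list. Sdc2, Sdc4, Ext1, Ext2, Extl3, Ndst1, Ndst2, Glce, Hs6st1 and Sulf2 were called lower as well. Sdc1, Sdc3 and Hs6st2 were not called. Plat, the tissue plasminogen activator, which can activate PDGF-C, fell from 68.8 to 43.9 CPM (-0.65, SE 0.040, adjusted p = 8.31e-17). Nrp1, a co-receptor, fell by 0.33 and Sparc, a matrix protein that binds PDGF, fell by 0.29 on the log2 scale (adjusted p = 1.52e-11 and 2.78e-11). Hspg2, which encodes perlecan, and Hs2st1 were the most abundant that were not called (-0.02 and -0.01).

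Genes of the signal relay moved both ways. All 36 docking and relay genes were tested, of which 14 rose, 9 fell and 13 were not called (median log2 fold change 0.04, 63.9% called, against 41.5% of all genes). Crk, an adaptor, rose from 192.4 to 296.9 CPM (0.63, SE 0.034, adjusted p = 2.13e-18). Map2k1, the kinase MEK1, rose from 68.7 to 99.9 CPM (0.54, SE 0.036, adjusted p = 1.12e-15), and Fyn, a Src family kinase, from 45.2 to 64.8 CPM (0.52, SE 0.044, adjusted p = 5.39e-13). Rasa1, a Ras GTPase activator recruited by PDGF receptor beta, rose by 0.31 on the log2 scale (adjusted p = 1.14e-09). Pik3r1, the regulatory subunit of phosphoinositide 3-kinase, fell from 127.3 to 99.0 CPM (-0.36, SE 0.034, adjusted p = 1.37e-11). Ptpn11, a phosphatase that binds activated receptors, was not called (-0.05).

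Of 15 genes for receptor turnover and dephosphorylation, 14 were tested, of which 7 rose, 4 fell and 3 were not called (median log2 fold change 0.07, 78.6% called, against 41.5% of all genes). Grb14, an adaptor that binds activated receptors, rose by 0.54 (adjusted p = 3.38e-14), Socs3 by 0.47 (adjusted p = 1.27e-12) and Stam, of the endosomal sorting machinery, by 0.40 (adjusted p = 1.15e-12) on the log2 scale. Grb10 fell by 0.27 (adjusted p = 8.03e-10), and Ptpn2, a phosphatase that acts on PDGF receptor beta, fell by 0.40 (adjusted p = 5.71e-09). Cbl, the ubiquitin ligase that sends both receptor families to degradation, was not called (93.7 and 92.9 CPM). Hgs is annotated as a pair of overlapping entries, each without a read, and was not tested.

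Genes known to respond to growth factor signalling did not move together. Of 25, all tested, 6 rose, 10 fell and 9 were not called (median log2 fold change -0.12, 64.0% called, against 41.5% of all genes). Dusp4, a MAP kinase phosphatase induced by growth factors, rose from 15.5 to 48.9 CPM (1.65, SE 0.055, adjusted p = 3.31e-25). Ier3 rose from 89.7 to 176.6 CPM (0.98, SE 0.038, adjusted p = 6.27e-23), and Myc from 100.4 to 187.9 CPM (0.90, SE 0.039, adjusted p = 9.86e-22). Egr1 and Egr3, immediate early transcription factors, fell from 434.5 to 299.9 CPM (-0.54, adjusted p = 2.89e-17) and from 53.7 to 30.1 CPM (-0.84, adjusted p = 9.07e-17). Ier2 and Spred2 were not called (0.08 and -0.08). Over the 5 lists together, 65.1% of 109 tested genes were called, 30 higher and 41 lower, against 41.5% of all genes, and the median level of the list genes was 64.0 CPM against 7.05 CPM for all genes tested. The relay, turnover and target lists had median levels of 88.7, 60.4 and 39.0 CPM. The lists were chosen with earlier results known and no comparison at matched level was made, so nothing about the pathway is read from these shares.

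**Figure D4:**
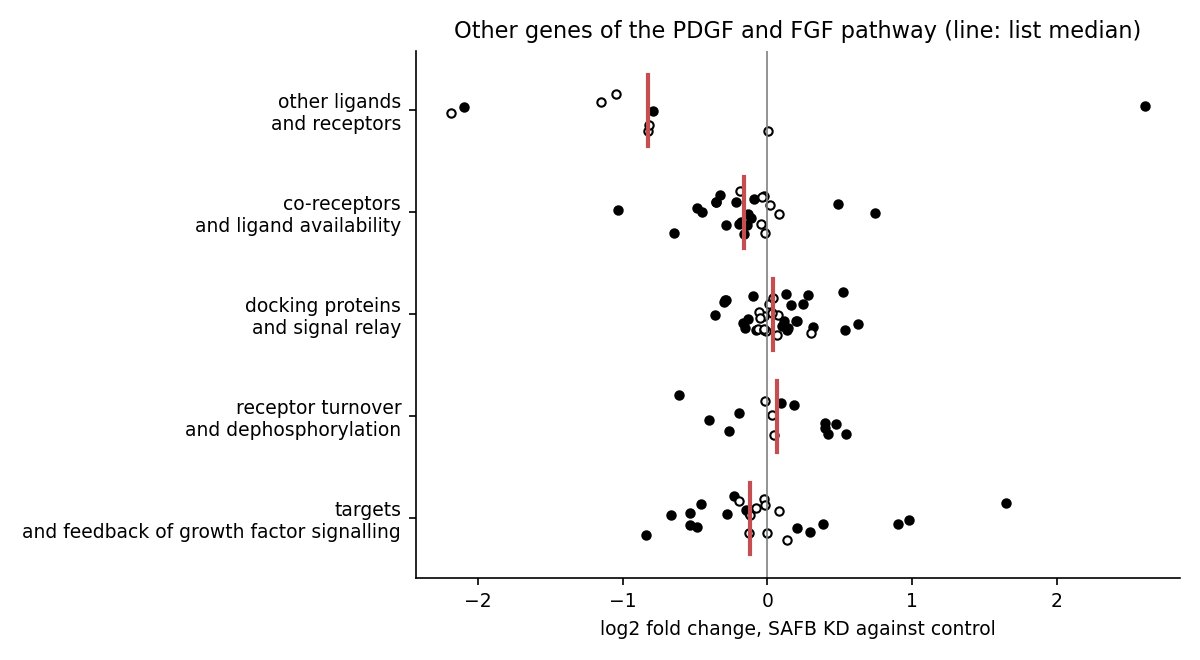
Log2 fold change (SAFB KD against control, x axis) of each tested gene in 5 lists of the pathway, with filled circles for genes called at an adjusted p under 0.05, open circles for genes not called, and a red line for the list median. The co-receptor list lies mostly left of 0, with Plau (0.74) and Gpc1 (0.49) to the right, and the target list reaches from Egr3 (-0.84) to Dusp4 (1.65).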

How the data were processed

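Poly(A)+ RNA of 3 control and 3 SAFB KD cultures of 3T3 cells was analysed, grouped by sample title. The authors trimmed reads, aligned them to GRCm38 with STAR 2.7.9a and deposited raw read counts per gene, 1 library per file. Per the methods, STAR itself counted reads per gene in reverse-stranded mode, and that the deposited column holds this output is inferred. Gene counts of this aligner by design take uniquely aligned reads and leave out reads shared by overlapping genes. The submitters' processing notes also name deepTools 3.5.1.

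Identifiers were matched to GENCODE M21, a later release than the M19 of the study (54495 matched, 37 did not). Genes with at least 10 reads over 6 libraries were scaled by TMM and tested by quasi-likelihood in edgeR 4.0.16 (R 4.3.3), 2-sided, with no covariate and Benjamini-Hochberg adjustment over all 19452 genes. SE was set from the test and the log2 fold change. DESeq2 1.42.0 and limma 3.58.1 served as alternatives. Counting noise alone did not account for the differences between replicates (chi-square over its degrees of freedom, 3.92 to 19.6), and the biological coefficient of variation was 3.49%. The series text calls the replicates biological.

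The genes and lists were chosen with earlier results of these data known. Named pathway genes were up to 5 called genes per list with the smallest adjusted p at a mean of at least 1 CPM, and up to 2 abundant ones that were not called, of which 1 is not reported here. The planned count of GAAGAA in introns was replaced by spliced transcripts.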

Additional observations from a re-analysis of the deposited data

How the results depend on the processing

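Of 129 values of the 10 genes under other settings (DESeq2, other scalings, other filters on low counts, limma-voom, each library left out, the replicate block), 126 kept direction and call. The exceptions were the 3 for Fgfr1 without 1 library. Pdgfra ranged from -1.38 to -1.36, Pdgfrb from -1.18 to -1.11, Fgf2 from 0.46 to 0.51, Fgf7 from -0.33 to -0.27 and Fgf10 from 0.22 to 0.35 on the log2 scale. Pdgfb had too few reads for filterByExpr, which also left 0 called rises among the other ligands and receptors. With a least change of 1 on the log2 scale in DESeq2, 0 of the 10 genes were higher and 1 was lower. With longest transcript lengths, the ratio of Pdgfra to Pdgfrb was 2.48 in control and 2.10 in SAFB KD, and that of Fgfr1 to Fgfr2 was 5.51 and 5.44.

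Same-numbered replicates did not deviate together (correlations 0.053, 0.015 and -0.001), and of the controls only control 1 correlated best with its own number. With the replicate block, 8117 genes were called against 8064 without it, and 2 of the 10 genes were higher and 4 lower, as without it. Depth limits Pdgfb, whose interval spans 0.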
